A study of Homo sapiens with 6 samples.

Results

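The genes described here are RN7SK, RNU12, RPPH1, SNORD3A and SNORD3D, which encode short folded RNAs that do their work without being translated and, in their mature form, carry no poly(A) tail. They were taken by their symbols, and all 5 were found among the 771 entries with a gene symbol, out of 1113 entries in each library's table. The series measured RNA in ES2, a human epithelial ovarian cancer cell line, to compare knockdown of RUNX1-IT1, a non-coding RNA of the RUNX1 locus, with a control. There were 2 groups of 3 libraries each, which received an antisense oligonucleotide (ASO) directed at RUNX1-IT1 (RUNX1-IT1 ASO) or a control one (control ASO). An ASO binds a chosen RNA by base pairing. All cells were ES2 and were grown in the same medium. The labels do not say whether the replicates were separate cultures, so the p-values measure only the spread between these libraries, which may be technical. RUNX1-IT1 and RUNX1 are not analysed here, so the knockdown itself could not be checked. Of 11 epithelial and ovarian marker genes looked up, only PAX8 had a row, so the cell type label could not be checked against its markers either.

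Values are in CPM, read counts scaled to a common library size. Libraries are numbered by the replicate numbers of the labels. The libraries were mRNA-focused and made from total RNA, per the labels' protocols. How mRNA was enriched is not given in the sources used here, so the levels are those that these libraries captured. Evenly spaced steps in the low values put the totals at about 18700000, 18600000 and 17100000 reads in the RUNX1-IT1 ASO libraries and at about 20100000, 17300000 and 21200000 in the control ASO libraries. The reads implied by these steps are estimates, less certain in the control ASO libraries, whose smallest values lay above 1 step. The entries of the table held 0.363 to 0.389% of the CPM scale in RUNX1-IT1 ASO libraries and 1.02 to 1.11% in control ASO libraries. The group means of 1112 of the 1113 entries differed by 2-fold or more, and 1081 of all entries were in the direction of less RNA under the RUNX1-IT1 ASO. The table thus looks chosen for such differences in these samples, and a p-value from it is not independent evidence of a change. CPM is a share of a library's reads, so less of an RNA per cell and more of other RNAs cannot be told apart. Neither the number of cells nor the total RNA per cell can be read from it.

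The RNAs serve different machines. U3, encoded by SNORD3A, SNORD3D and further near-identical copies, is a box C/D small nucleolar RNA that pairs with precursor ribosomal RNA and is needed for its early cleavages. RN7SK (7SK) is a nuclear scaffold that, together with HEXIM1 or HEXIM2, holds the elongation kinase P-TEFb inactive. RPPH1 (H1 RNA) is the RNA subunit of RNase P, which removes the leader from precursor transfer RNAs, and RNU12 (U12) pairs with the branch site of the rare minor-class introns. U3 and U12 are transcribed by RNA polymerase II, while 7SK and H1 RNA are transcribed by RNA polymerase III.

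The U3 sequences are shown first because reads from the copies can hardly be told apart. They are the transcripts of GENCODE release 29 on GRCh38, written from the 5′ to the 3′ end as DNA letters. SNORD3A lies at chr17:19188016-19188232 on the plus strand, SNORD3D at chr17:19112420-19112636 on the minus strand and SNORD3B-1 at chr17:19061912-19062128 on the plus strand. Each is 217 bases long, and capitals mark every position at which any of 5 annotated copies (these 3, SNORD3B-2 and SNORD3C) differs from SNORD3A.
SNORD3A: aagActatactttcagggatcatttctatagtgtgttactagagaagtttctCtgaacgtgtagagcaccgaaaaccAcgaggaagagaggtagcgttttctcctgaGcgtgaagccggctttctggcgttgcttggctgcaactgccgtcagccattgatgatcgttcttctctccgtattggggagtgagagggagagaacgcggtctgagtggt
SNORD3D: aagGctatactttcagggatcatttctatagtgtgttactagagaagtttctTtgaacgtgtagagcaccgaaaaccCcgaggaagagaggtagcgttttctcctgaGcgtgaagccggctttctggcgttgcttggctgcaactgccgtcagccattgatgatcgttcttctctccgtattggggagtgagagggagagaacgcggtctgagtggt
SNORD3B-1: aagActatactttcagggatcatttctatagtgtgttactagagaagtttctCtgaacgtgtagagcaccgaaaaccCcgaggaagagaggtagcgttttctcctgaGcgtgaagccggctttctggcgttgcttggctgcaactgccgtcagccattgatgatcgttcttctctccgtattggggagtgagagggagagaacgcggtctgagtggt
SNORD3D differed from SNORD3A at 3 positions, A4G, C53T and A78C, where the SNORD3A base comes first and positions are counted from 1 at the 5′ end. SNORD3B-1 and SNORD3B-2 were identical to each other and carried only A78C. SNORD3C carried only G108A. SNORD3A and SNORD3D were thus identical at 214 of 217 bases (98.6%). Of all 50-base stretches of SNORD3A, 88.1% also occurred in a transcript of another gene, and 40.7% of its 100-base stretches did. None of its 150-base stretches did. For SNORD3D, all 50-, 100- and 150-base stretches also occurred in AC007952.4, a long intergenic non-coding RNA gene that spans it on the same strand. How the authors' counting assigned such reads is not given in the sources used here, so the separate values of SNORD3A and SNORD3D are uncertain.

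**Figure D1:**
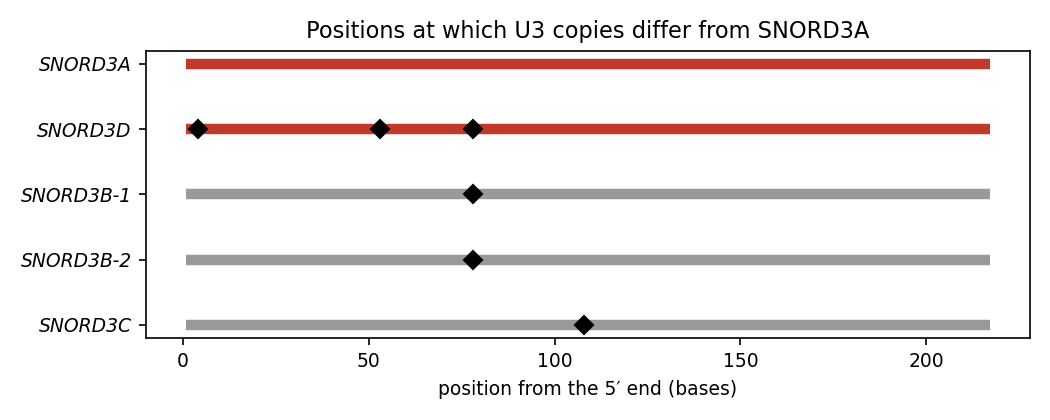
Map of 5 U3 copies along the 217 bases from the 5′ end (x axis, bases). Red bars are the copies described here, grey bars are other copies, and black diamonds mark positions that differ from SNORD3A: 3 in SNORD3D and 1 in each of SNORD3B-1, SNORD3B-2 and SNORD3C.

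The other RNAs are shown for the letters and neighbours that bear on how they are read. RNU12 lies at chr22:42615244-42615393 on the plus strand and is printed whole, with AAGGAA (bases 20 to 25), part of the stretch that pairs with the branch site, and AATTTTTG (bases 74 to 81), a match to the usual Sm protein site of spliceosomal RNAs, in capitals. RN7SK lies at chr6:52995621-52995948 on the plus strand. Its first 120 of 328 bases (chr6:52995621-52995740) are printed with GATC in capitals. These letters are known from the HEXIM-binding stem of 7SK, but which of the marked copies lie in that stem was not examined. RPPH1 lies at chr14:20343075-20343407 on the minus strand. Its first 120 of 333 bases (chr14:20343288-20343407) are printed, and capitals mark the 23 bases that fall inside the promoter window of PARP2, the gene transcribed in the opposite direction.
RNU12: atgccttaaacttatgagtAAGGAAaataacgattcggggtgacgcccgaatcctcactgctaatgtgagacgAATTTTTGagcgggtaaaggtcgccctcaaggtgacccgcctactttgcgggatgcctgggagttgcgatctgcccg
RN7SK: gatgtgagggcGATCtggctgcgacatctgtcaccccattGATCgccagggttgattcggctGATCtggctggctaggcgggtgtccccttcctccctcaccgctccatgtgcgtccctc
RPPH1: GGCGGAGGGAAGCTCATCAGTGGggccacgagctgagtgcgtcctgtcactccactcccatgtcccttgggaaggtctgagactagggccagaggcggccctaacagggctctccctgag
Letters were searched on the printed strand, in the first bases of each GENCODE transcript at least as long as the RNA. AAGGAA occurred in 7.63% and AATTTTTG in 0.328% of 199567 windows of 150 bases. RN7SK held 3 GATC, all within its first 66 bases, and at least 3 were held by 7.26% of 190637 windows of 328 bases. The longest run of A was 4 bases in RNU12, SNORD3A and SNORD3D, 3 in RN7SK and 2 in RPPH1. These matches describe the letters only.

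These 3 RNAs also overlapped other annotated genes. RN7SK was covered over all 328 bases by RF00100, a second record of the same locus. Its 50-base stretches also occurred in transcripts of other genes, 14 with RF00100 included. Of its 279 such stretches, 96 occurred in RN7SKP71 and 94 in RN7SKP203. Of its 229 stretches of 100 bases, 46 and 44 did, and those of 150 bases occurred only in RF00100. RNU12 shared its start and all 150 bases with Z93241.1, a longer long intergenic non-coding RNA gene on the same strand. RPPH1 lay wholly inside AL355075.4, annotated as an antisense gene and on the same strand as RPPH1, and the PARP2 gene began 174 bases away on the other strand. The promoter window of PARP2 in RefSeq, 250 bases before to 50 after its start, is chr14:20343385-20343684 on GRCh38. None of these overlapping or adjoining genes had a row by symbol in the tables. The strand setting and annotation of the counting are not given in the sources used here, so reads of the members and of genes that cover them cannot be told apart.

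All 5 RNAs were lower under the RUNX1-IT1 ASO, by 2.65- to 4.37-fold between group means. Every library of that group lay below all control ASO libraries. After rescaling for the decrease of the whole table, RN7SK, RPPH1 and RNU12 did not reach an adjusted p under 0.05 (limma). RNU12 then had a log2 change of 0.06 (limma, adjusted p = 0.729), with no detectable difference. The summed level of the 5 was 13.5, 11.3 and 12.2 CPM in RUNX1-IT1 ASO libraries 1, 2 and 3, against 46.8, 44.0 and 50.4 CPM in control ASO libraries 1, 2 and 3. In limma, fitted to log2(CPM + 1) over the 489 named entries averaging 1 CPM or more, all 5 were tested and all 5 were called lower at a Benjamini-Hochberg adjusted p under 0.05. Of all entries tested, 97.5% were called lower and 2.04% higher, and 97.1% showed the same separation of the groups. A count of 5 of 5 is therefore the share that the table as a whole shows and is no result about these RNAs. A log2 change is RUNX1-IT1 ASO minus control ASO, with limma standard errors. The scale understates the change of low genes.

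**Figure D2:**
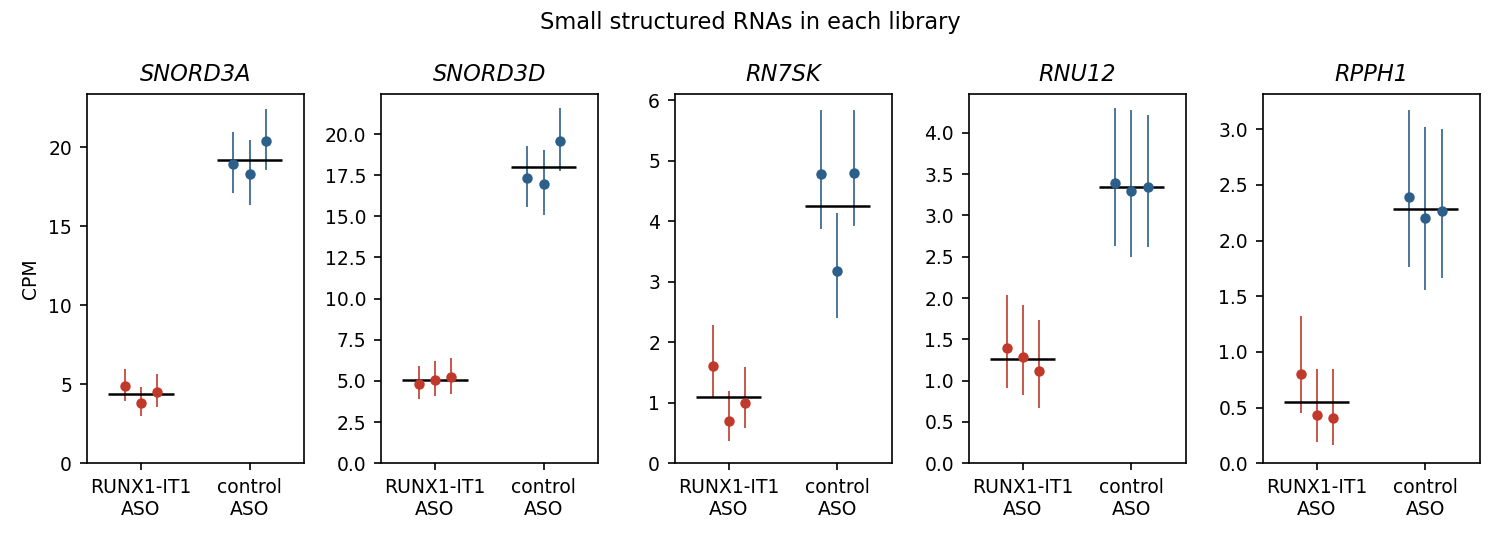
CPM of each RNA (y axis, linear from 0, own scale per panel) in 3 RUNX1-IT1 ASO libraries (red, left) and 3 control ASO libraries (blue, right). Points are libraries, vertical lines exact 95% Poisson intervals of the implied reads (counting error only) and black lines group means. The highest red point lies below the lowest blue point in each panel. After rescaling to equal listed totals, RN7SK, RPPH1 and RNU12 lose the call, with RNU12 at 0.06 (limma, adjusted p = 0.729).

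Both U3 copies had the highest levels of the 5, also per length when RefSeq lengths were used. SNORD3A stood at 4.87, 3.82 and 4.51 CPM in RUNX1-IT1 ASO libraries 1, 2 and 3, and at 18.9, 18.3 and 20.4 CPM in control ASO libraries 1, 2 and 3. All RUNX1-IT1 ASO libraries were low and close to each other, and the groups did not overlap. The means were 4.4 ± 0.533 CPM in RUNX1-IT1 ASO libraries and 19.2 ± 1.08 CPM in control ASO libraries (SD, n = 3 each), 4.37-fold lower. SNORD3A fell by 1.91 ± 0.11 on the log2(CPM + 1) scale (limma, adjusted p = 4.45e-09), the 40th largest decrease of 489 tested entries. By fold it was the 123rd, at the upper quartile of the tested entries.

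SNORD3D stood at 4.81, 5.05 and 5.21 CPM in RUNX1-IT1 ASO libraries 1, 2 and 3, against 17.3, 17 and 19.6 CPM in control ASO libraries 1, 2 and 3. Again the groups did not overlap, and the RUNX1-IT1 ASO libraries varied little, with a coefficient of variation (CV) of 4.02% against 7.94% among control ASO libraries. The means were 5.03 ± 0.202 CPM in RUNX1-IT1 ASO libraries and 18.0 ± 1.43 CPM in control ASO libraries (SD, n = 3 each), 3.57-fold lower. SNORD3D fell by 1.65 ± 0.10 on the log2(CPM + 1) scale (limma, adjusted p = 8.48e-09), the 75th largest decrease. By fold it was the 170th. With SNORD3A, SNORD3D and SNORD3B-1 summed and fitted as 1 entry, a step added after the data were seen, U3 was 4.01-fold lower and fell by 1.90 ± 0.09 on that scale (limma, adjusted p = 1.22e-09). The decrease thus did not rest on how reads were divided between these copies.

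The balance of the copies was read within each library, where the scaling cancels. SNORD3D reached 0.989, 1.32 and 1.16 times SNORD3A in RUNX1-IT1 ASO libraries 1, 2 and 3, against 0.916, 0.927 and 0.961 times in control ASO libraries 1, 2 and 3. The ratio was thus higher in each RUNX1-IT1 ASO library, by 0.30 on the log2 scale between the means, and by 0.19 without RUNX1-IT1 ASO replicate 2. The exact two-sided permutation test gave p = 0.1, the smallest that 3 against 3 libraries allow. In implied reads, SNORD3D was 57.0% of 165 reads of both copies in RUNX1-IT1 ASO replicate 2 (exact 95% binomial interval 49.0 to 64.6%). It was 49.0% of 849 reads in control ASO replicate 3 (45.6 to 52.4%), and the intervals of all 6 libraries overlapped.

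A further copy was listed at a low level. SNORD3B-1, about 50 kb from SNORD3D (gap 49.7 kb, with SNORD3A 75.4 kb from SNORD3D on the other side), stood at 0, 0.161 and 0.176 CPM in RUNX1-IT1 ASO libraries 1, 2 and 3 and at 0.698, 1.04 and 1.56 CPM in control ASO libraries 1, 2 and 3. These are 0, 3 and 3 implied reads against 14, 18 and 33, so the RUNX1-IT1 ASO values lie at or under the floor of 3 reads. The groups did not overlap, and the entry was below the mean of 1 CPM needed for the test. By GENCODE symbols, no other listed gene lay within 100 kb of any of the 5 RNAs.

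RN7SK, the 7SK scaffold, had the largest CV of the 5 in both groups. It stood at 1.60, 0.699 and 0.996 CPM in RUNX1-IT1 ASO libraries 1, 2 and 3, which are 30, 13 and 17 implied reads, and at 4.78, 3.19 and 4.81 CPM in control ASO libraries 1, 2 and 3, which are 96, 55 and 102. Replicate 1 was the high one of the RUNX1-IT1 ASO group and replicate 2 the low one of the control ASO group, and a gap remained between the groups. The means were 1.10 ± 0.461 CPM in RUNX1-IT1 ASO libraries and 4.26 ± 0.930 CPM in control ASO libraries (SD, n = 3 each), 3.87-fold lower. RN7SK fell by 1.33 ± 0.18 on the log2(CPM + 1) scale (limma, adjusted p = 8.97e-06), the 148th largest decrease. Its CV was 42% in RUNX1-IT1 ASO libraries and 21.8% in control ASO libraries, above the medians of 21.1% in RUNX1-IT1 ASO and 12% in control ASO libraries over 233 entries with a mean within 2-fold of its own. Leaving out each library in turn kept the decrease between 1.19 and 1.5, each time past the threshold, but after rescaling to equal listed totals its change was -0.34 (limma, adjusted p = 0.235) and the call was lost.

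Of 22 genes of the 7SK particle, P-TEFb and its partners, only HEXIM1 had a row. HEXIM1, the protein that inhibits P-TEFb when bound to 7SK, stood at 55.4, 54.9 and 61.9 CPM in RUNX1-IT1 ASO libraries 1, 2 and 3, and at 123, 111 and 132 CPM in control ASO libraries 1, 2 and 3. The groups did not overlap, and the means were 57.4 ± 3.92 CPM in RUNX1-IT1 ASO libraries and 122 ± 10.6 CPM in control ASO libraries (SD, n = 3 each), 2.13-fold lower. HEXIM1 fell by 1.08 ± 0.09 on the log2(CPM + 1) scale (limma, adjusted p = 7.76e-08), but after rescaling to equal listed totals its change was 0.41 (adjusted p = 0.000468), of the opposite sign. Its fold was below the median of all tested entries, 2.97.

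RPPH1, the RNA of RNase P, had the lowest level of the 5, also per length. It stood at 0.802, 0.430 and 0.410 CPM in RUNX1-IT1 ASO libraries 1, 2 and 3, against 2.39, 2.20 and 2.26 CPM in control ASO libraries 1, 2 and 3. The control ASO libraries were close together (CV 4.29%), RUNX1-IT1 ASO replicate 1 was the high one of its group (CV 40.3%), and the groups did not overlap. These are 15, 8 and 7 implied reads in RUNX1-IT1 ASO libraries and 48, 38 and 48 in control ASO libraries, so the RUNX1-IT1 ASO values are coarse. The exact 95% Poisson interval of 7 reads runs from 2.81 to 14.4 reads. That of 48 reads runs from 35.4 to 63.6, wider than the spread of the control ASO libraries. The means were 0.547 ± 0.221 CPM in RUNX1-IT1 ASO libraries and 2.28 ± 0.0980 CPM in control ASO libraries (SD, n = 3 each), 4.17-fold lower. RPPH1 fell by 1.09 ± 0.13 on the log2(CPM + 1) scale (limma, adjusted p = 4.08e-06), and by 1.93 with a pseudocount of 0.1 in place of 1 CPM. After rescaling to equal listed totals its change was -0.33 (limma, adjusted p = 0.158) and the call was lost. None of 12 other genes of RNase P and the related RNase MRP had a row, RMRP among them.

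RNU12, the U12 spliceosomal RNA, had the smallest decrease. It stood at 1.39, 1.29 and 1.11 CPM in RUNX1-IT1 ASO libraries 1, 2 and 3, against 3.39, 3.30 and 3.35 CPM in control ASO libraries 1, 2 and 3. The groups lay apart, with a CV of 11.1% in RUNX1-IT1 ASO libraries and 1.30% in control ASO libraries. The means were 1.26 ± 0.140 CPM in RUNX1-IT1 ASO libraries and 3.35 ± 0.0435 CPM in control ASO libraries (SD, n = 3 each), 2.65-fold lower. RNU12 fell by 0.94 ± 0.12 on the log2(CPM + 1) scale (limma, adjusted p = 6.23e-06), with a larger decrease in 334 of the 489 tested entries, but rescaling to equal listed totals turned its change to 0.06 (adjusted p = 0.729). The implied reads were 26, 24 and 19 in RUNX1-IT1 ASO libraries and 68, 57 and 71 in control ASO libraries. None of 15 other genes of the minor spliceosome had a row, which left RNU12 its only listed component.

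The remaining lists were nearly empty. Of 16 symbols of protein genes of the U3 and related small nucleolar particles, and of 44 genes for transcription and processing of small RNAs, none had a row. Among 58 other small structured RNAs only SNORD3B-1 and TERC had one. TERC, the template RNA of telomerase, stood at 0.107, 0.430 and 0.410 CPM in RUNX1-IT1 ASO libraries 1, 2 and 3 and at 1.05, 0.637 and 1.46 CPM in control ASO libraries 1, 2 and 3. Its groups did not overlap, and its mean was below the 1 CPM needed for the test. These are 2, 8 and 7 implied reads in RUNX1-IT1 ASO libraries and 21, 11 and 31 in control ASO libraries. A gene without a row may have missed the selection of the table, so nothing is said of its level.

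Per length, the order of the levels was nearly the same in each library. With RefSeq lengths, SNORD3A averaged 20.3 CPM per kb in RUNX1-IT1 ASO libraries and 88.5 in control ASO libraries, and SNORD3D averaged 23.2 CPM per kb in RUNX1-IT1 ASO libraries and 82.8 in control ASO libraries. RNU12 followed with 8.43 CPM per kb in RUNX1-IT1 ASO libraries and 22.3 in control ASO libraries, then RN7SK with 3.31 in RUNX1-IT1 ASO libraries and 12.8 in control ASO libraries. RPPH1 came last, with 1.61 CPM per kb in RUNX1-IT1 ASO libraries and 6.70 in control ASO libraries. With these lengths, the order RNU12, RN7SK, RPPH1 below both U3 copies held in all 6 libraries. The place of SNORD3A rests on its RefSeq length of 217 bases. Its GENCODE gene record spans 699 bases, which would give a lower level per kb, and the order was not computed with it. SNORD3A and SNORD3D changed places: SNORD3A led in all control ASO libraries and SNORD3D in RUNX1-IT1 ASO replicates 2 and 3, so these neighbours had no fixed order. RPPH1 reached 2.35 CPM per kb in RUNX1-IT1 ASO replicate 1, above the 2.11 of RN7SK in replicate 2, so these neighbours overlapped between libraries of that group.

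**Figure D3:**
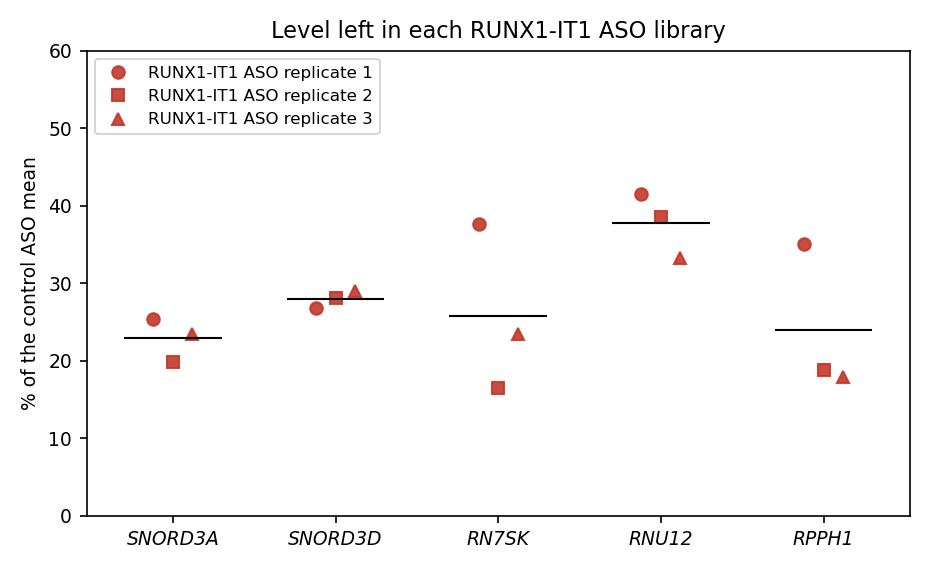
Level of each RNA in RUNX1-IT1 ASO replicates 1 (circles), 2 (squares) and 3 (triangles) as a percentage of its control ASO mean (y axis); black lines are the RUNX1-IT1 ASO means on the same scale. RNU12 keeps the most, 33.3 to 41.6%, and its log2 change is 0.06 after rescaling to equal listed totals (limma, adjusted p = 0.729). Replicate 1 stands high for RN7SK and RPPH1.

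The RNAs kept different shares of their control level. As a percentage of the control ASO mean, SNORD3A stood at 25.3, 19.9 and 23.5% and SNORD3D at 26.8, 28.1 and 29% in RUNX1-IT1 ASO libraries 1, 2 and 3. RN7SK stood at 37.7, 16.4 and 23.4%, and RPPH1 at 35.1, 18.8 and 17.9%. RNU12 stood at 41.6, 38.6 and 33.3%. Replicate 1 was thus the highest RUNX1-IT1 ASO library for 4 of the 5, all but SNORD3D. The margin was widest for RN7SK and RPPH1. In RUNX1-IT1 ASO libraries 1, 2 and 3, RN7SK had 30, 13 and 17 implied reads and RPPH1 had 15, 8 and 7. For each of these RNAs, the exact Poisson interval of replicate 1 overlapped those of replicates 2 and 3. Whether the margins exceed counting error, or go with the polymerase that makes an RNA, was not tested. Without replicate 1 the log2 decreases of RN7SK and RPPH1 were 1.5 and 1.21.

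Set against 3 of the other RNAs within a library, RNU12 had a higher ratio in each RUNX1-IT1 ASO library than in any control ASO library. Of 10 pairs, compared after the values were seen, 4 did not overlap between the groups: RNU12 with RPPH1, RNU12 with SNORD3A, RNU12 with SNORD3D, and the U3 pair. The share of such pairs among all tested entries was not counted, so this count is no result about RNU12 or the U3 pair. RNU12 was 1.73, 3.00 and 2.71 times RPPH1 in RUNX1-IT1 ASO libraries 1, 2 and 3, against 1.42, 1.5 and 1.48 times in control ASO libraries 1, 2 and 3. Its ratio to SNORD3A was higher in RUNX1-IT1 ASO libraries by 0.72 on the log2 scale and that to SNORD3D by 0.43, and each of these had an exact permutation p of 0.1, the smallest possible, and 0.25 after adjustment over the 10 pairs. None of the pairs therefore passes a threshold of 0.05, which this design cannot reach. RN7SK was 2.00, 1.63 and 2.43 times RPPH1 in RUNX1-IT1 ASO libraries and 2.00, 1.45 and 2.13 times in control ASO libraries, ranges that overlapped (exact permutation p = 0.6).

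**Figure D4:**
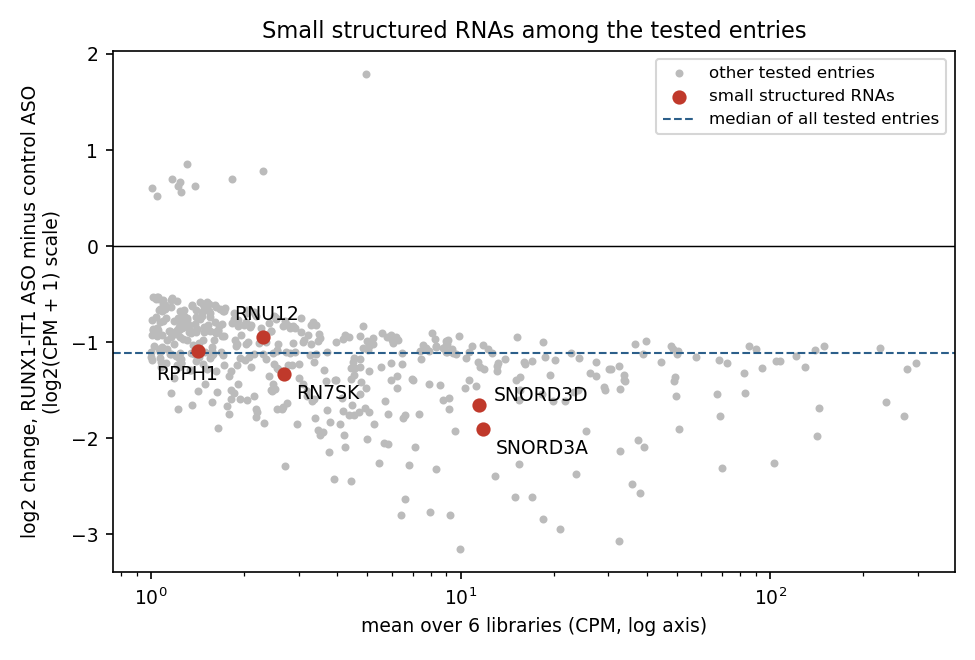
Log2 change (y axis, log2(CPM + 1) scale, RUNX1-IT1 ASO minus control ASO) against the mean over 6 libraries (x axis, CPM, log scale) for the 489 tested entries. Grey points are other entries, red points the 5 RNAs and the dashed line the median of all tested entries at -1.12. SNORD3A, SNORD3D and RN7SK lie below that line, RPPH1 and RNU12 above it. With a pseudocount of 0.1 RPPH1 lies on the other side, at -1.93 against a median of -1.50. After rescaling to equal listed totals, RNU12 lies at 0.06 (limma, adjusted p = 0.729).

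Against the table as a whole the RNAs differed in place. The median log2 change of the 5 RNAs was -1.33, against -1.12 over all 489 tested entries, and the median fold was 3.87 against 2.97. On the log2(CPM + 1) scale, SNORD3A at -1.91 and SNORD3D at -1.65 lay beyond the lower quartile of the single entries, -1.43. RN7SK, RPPH1 and RNU12 lay between the quartiles, on a scale that understates the change of low genes. By fold, SNORD3A lay at the upper quartile, 4.37. SNORD3D, RN7SK, RPPH1 and RNU12 lay between the fold quartiles, 2.33 and 4.37. RPPH1 at 4.17-fold and RN7SK at 3.87-fold exceeded SNORD3D at 3.57-fold. Among entries with a mean within 2-fold of its own, 18 of 90 fell by a larger fold than SNORD3A and 20 of 91 by a larger fold than SNORD3D. For RN7SK it was 82 of 233, for RPPH1 72 of 248 and for RNU12 177 of 266. RNU12 alone thus had a smaller fold than the median of its like-level entries, 2.65 against 3.09.

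**Figure D5:**
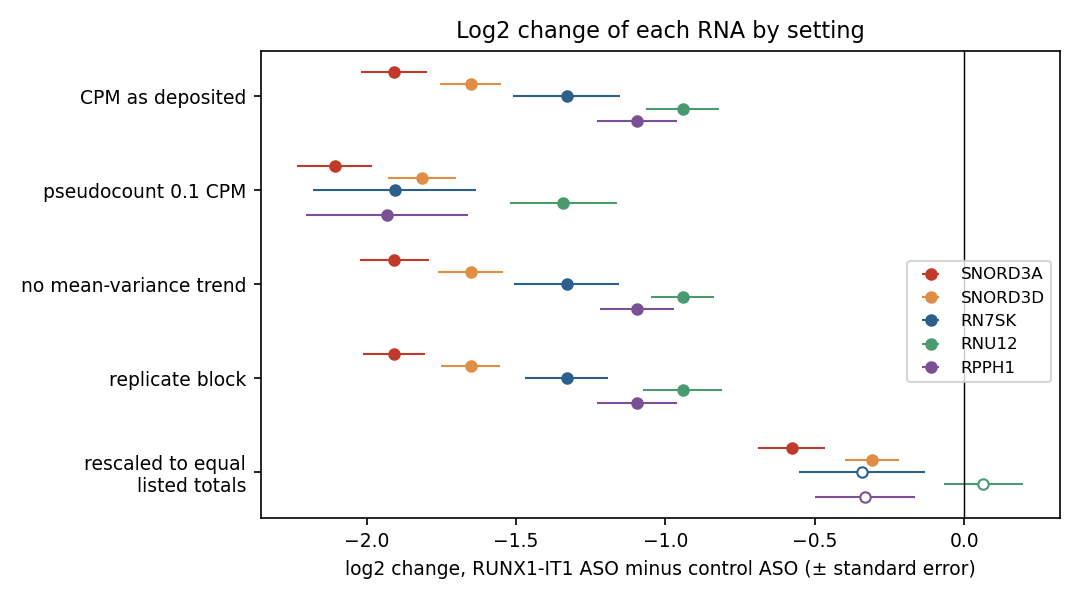
Log2 change of each RNA (x axis, RUNX1-IT1 ASO minus control ASO, points with limma standard errors) under 5 settings of the fit (y axis). Filled points pass an adjusted p of 0.05 and open points do not. Under rescaling to equal listed totals, at the bottom, all points move towards 0, RN7SK, RPPH1 and RNU12 lose the call, and RNU12 lies at 0.06, on the other side of 0.

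The listed entries as a whole were lower in the RUNX1-IT1 ASO libraries, and their sum differed in the same way, at 3628, 3812 and 3894 CPM against 10803, 10175 and 11070 CPM in control ASO libraries. Rescaling each library to the same listed total moved the median log2 change of all tested entries from -1.12 to -0.06. Relative to the listed total, SNORD3A had a change of -0.58 (limma, adjusted p = 0.00238) and SNORD3D one of -0.31 (limma, adjusted p = 0.0224). RN7SK at -0.34 (adjusted p = 0.235), RPPH1 at -0.33 (adjusted p = 0.158) and RNU12 at 0.06 (adjusted p = 0.729) no longer passed. The listed total is itself a sum of entries that look chosen for differences between these samples. These p-values therefore only place an RNA among the listed entries and are no separate evidence of a change. The 5 RNAs made up 0.371, 0.296 and 0.314% of the listed CPM in RUNX1-IT1 ASO libraries 1, 2 and 3, against 0.434, 0.432 and 0.455% in control ASO libraries 1, 2 and 3, which did not overlap. Which scaling is closer to the amount of RNA per cell was not tested.

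For each RNA the 2 tested entries with the most similar profile over the 6 libraries were taken, as the smallest root mean square distance between centred log2(CPM + 1) values among entries of similar level. SNORD3D was closest to DUSP10, a MAP kinase phosphatase gene, at a distance of 0.0464 and TEF at 0.0844, out of 92 candidates. DUSP10 averaged 9.29 CPM in RUNX1-IT1 ASO libraries and 30.5 CPM in control ASO libraries. SNORD3A was closest to ZNF280A at 0.1 and LOC440028 at 0.103, out of 91. RPPH1 was closest to MYLK2 at 0.0467 and SP9 at 0.0521, out of 250, and RNU12 to LINC00346 at 0.0490 and ST7-AS1 at 0.05, out of 268. RN7SK had no entry as close, with OAZ3 at 0.136 and EID3 at 0.152 out of 235. Neither U3 copy was the other's nearest entry.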

How the data were processed

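RNA of 6 ES2 libraries, 3 RUNX1-IT1 ASO and 3 control ASO, was analysed. The values deposited by the authors are CPM, a unit read from the values themselves. Per the submitters' processing notes, FastQC 0.11.9 and fastp 0.22.0 were used with GRCh38. The aligner, counting tool, annotation and strand setting are not given in the sources used here. Low values fell on steps, and up to 320 steps each was whole within a tolerance of 0.1 step. As the smallest control ASO values lay at 2, 5 and 2 steps, whole reads were not taken as recovered, and implied reads are estimates. They were used for totals, intervals, floors, the split of U3 reads and the comparison of replicates, but in no test of expression. A floor of 3 reads is 0.141 to 0.176 CPM. Intervals and floors cover counting error only.

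With limma 3.58.1 in R 4.3.3, log2(CPM + 1) was fitted with a mean-variance trend and group as the only term, over named entries averaging 1 CPM or more, and p-values were Benjamini-Hochberg adjusted over all 489. The files hold no counts, so the test that the design gives for normalised values was used. The fit was tested on simulated data in which most entries did not change and the others changed in both directions. That setting differs from this table, so it does not cover calls among entries chosen for a difference. Permutation tests used scipy 1.17.1, and sequences were compared with Biopython 1.88. The members and gene lists were chosen with earlier results of these data known. Named were the 5 members, every listed gene of the lists, the 2 entries nearest in profile to each member and listed genes within 100 kb. The 342 entries without a symbol were left out of the tests. By implied reads, which are estimates, no replicates agreed within sampling noise (chi-square per degree of freedom 1.97 to 2.79 over listed entries). Alternatives were another pseudocount, other filters, rescaling, no trend, a block, unnamed entries and leaving out each library.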

Additional observations from a re-analysis of the deposited data

How the results depend on the processing

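In the main fit 97.5% of all tested entries were called lower, and the share of them that kept the call under alternatives was not counted. The count of kept calls that follows is therefore no result about the 5 RNAs. Across 62 values of the 5 RNAs under alternatives, 59 kept their direction and call. The other 3 came from rescaling to equal listed totals, where RN7SK at -0.34 and RPPH1 at -0.33 lost the call. RNU12 also lost it, at 0.065 (limma, adjusted p = 0.729). HEXIM1 turned to 0.41 under the same scaling (limma, adjusted p = 0.000468). This scaling removes the decrease shared by the listed entries. The 477 entries called lower and 10 called higher became 118 and 43 under it, 750 and 19 with no filter on low values, and 165 and 0 at a mean of at least 5 CPM. There, in limma, none of 165 entries was higher at an unadjusted p under 0.05 either, and fewer entries were tested. Of the 5 RNAs, SNORD3A and SNORD3D remained in that test. With entries without a symbol, 20 were called higher. Leaving out each library moved the log2 difference of SNORD3D to SNORD3A between 0.19 and 0.40 and changed no call of the 5 RNAs. The test on whole reads was not run, because whole reads were not recovered for the control ASO libraries. Same-numbered libraries did not deviate together (correlations -0.24, -0.10 and -0.02). The deviations were centred within groups of 3 libraries, so these values cannot show whether same-numbered libraries shared a culture or batch. With the replicate block, 478 entries were called lower and 10 higher, and the changes were -1.33 for RN7SK, -0.94 for RNU12, -1.09 for RPPH1, -1.91 for SNORD3A and -1.65 for SNORD3D, all still called. Depth limits RPPH1 most, at 7 to 15 implied reads in RUNX1-IT1 ASO libraries.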
